A study of Mus musculus with 57 samples.

Results

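Acetylation and trimethylation of histone H3 lysine 27 were compared in the gastrocnemius, a fast hindlimb muscle, of 10 PSAPP mice. The members were the 10 H3K27ac and the 10 H3K27me3 gastrocnemius libraries, which are 20 of the 57 libraries of the series, and the 2 libraries of an animal were paired by the animal code in their deposited names. PSAPP mice are a model of Alzheimer's disease that carries mutant APP and presenilin transgenes. All animals carried them, so the series holds no wild-type group, and the promoters that drive them are not given in the sources used here. The mice were killed at 13 months of age, after single housing and a fixed daily ration of a modified AIN-93 diet since the age of 6 months. Both sexes were used, but the labels do not give the sex of each animal, so sex was not a factor here. The same muscle's H3K4me3 libraries (10) and the cortex H3K27ac and H3K27me3 libraries of 9 of the animals served as references. Chromatin came from pieces of whole tissue, and each library was used here as peaks called in that library alone, without reads between the peaks.

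The same lysine residue cannot be acetylated and trimethylated at once. Acetylation is laid down by CBP and p300 at active promoters and enhancers, and trimethylation by the Polycomb repressive complex with its catalytic subunits EZH1 and EZH2, which covers silent developmental genes in broad domains. H3K4me3 marks most active and many poised promoters, and promoters with H3K4me3 and H3K27me3 together are called bivalent.

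H3K27ac libraries held 46028 to 67089 autosomal peaks with 15.6 to 27.04 M reads in them (M, mega), and H3K27me3 libraries held 26943 to 42081 peaks with 2.99 to 18.2 M reads. H3K27me3 of animal 5 stood apart with the 18.2 M reads and 484 Mb under peaks, against a median of 260.0 Mb. At the promoters of 26 sarcomere and Z-disc genes, which mark myofibres, H3K27ac was called in at least 8 animals at all 26, and the defining genes of the labelled tissue were thus present. Promoters of other cell types of muscle were counted likewise, against 14964 of all 24963 genes, with H3K27ac in 12 of 12 endothelial genes, 9 of 11 fibroblast genes, 9 of 10 satellite cell genes, 7 of 9 Schwann cell genes, 7 of 8 smooth muscle and pericyte genes, 4 of 8 adipocyte genes and 3 of 12 leukocyte genes, among which Ptprc was under neither mark in any animal.

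The promoters of 6 genes show the sequences on which the marks lay, a pair for each pattern. They are the 250 bases before the start site, 5′ to 3′ on the gene's strand, from the RefSeq mm10 (GRCm38) assembly, with each CpG in capitals. Ckm (chr7:19410844-19411093, plus strand), muscle creatine kinase, and Myh4 (chr11:67237562-67237811, plus strand), the fast IIb myosin heavy chain, carried H3K27ac in 10 animals. Pax6 (chr2:105668646-105668895, plus strand), an eye and brain regulator, and Tbx20 (chr9:24774304-24774553, minus strand), a heart regulator, carried H3K27me3 in 10 animals. Pax7 (chr4:139832969-139833218, minus strand), the satellite cell regulator, and Gata2 (chr6:88193641-88193890, plus strand), a blood and endothelial regulator, carried both in 10 animals.
Ckm: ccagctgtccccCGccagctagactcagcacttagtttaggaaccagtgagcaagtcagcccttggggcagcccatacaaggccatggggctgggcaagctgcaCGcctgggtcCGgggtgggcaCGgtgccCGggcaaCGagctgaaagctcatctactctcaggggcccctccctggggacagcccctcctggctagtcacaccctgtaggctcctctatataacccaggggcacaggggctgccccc
Myh4: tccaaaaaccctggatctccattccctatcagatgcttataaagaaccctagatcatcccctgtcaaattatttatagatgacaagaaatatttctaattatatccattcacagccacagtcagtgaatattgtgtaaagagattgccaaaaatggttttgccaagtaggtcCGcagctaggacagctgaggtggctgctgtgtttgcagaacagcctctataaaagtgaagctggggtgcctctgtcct
Pax6: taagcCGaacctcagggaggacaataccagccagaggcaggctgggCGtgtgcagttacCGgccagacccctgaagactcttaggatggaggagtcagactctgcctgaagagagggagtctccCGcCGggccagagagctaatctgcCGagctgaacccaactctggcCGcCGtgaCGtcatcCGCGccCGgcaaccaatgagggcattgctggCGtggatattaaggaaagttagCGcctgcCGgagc
Tbx20: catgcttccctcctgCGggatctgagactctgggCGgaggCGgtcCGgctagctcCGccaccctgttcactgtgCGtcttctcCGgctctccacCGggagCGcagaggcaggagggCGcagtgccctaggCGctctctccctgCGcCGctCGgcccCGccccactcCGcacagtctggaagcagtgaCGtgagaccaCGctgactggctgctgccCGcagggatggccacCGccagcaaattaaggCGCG
Pax7: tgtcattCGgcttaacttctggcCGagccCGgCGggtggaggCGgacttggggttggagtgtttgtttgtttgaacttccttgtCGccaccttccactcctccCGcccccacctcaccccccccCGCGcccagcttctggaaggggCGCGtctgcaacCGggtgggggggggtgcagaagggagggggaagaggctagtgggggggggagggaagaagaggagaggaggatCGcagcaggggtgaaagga
Gata2: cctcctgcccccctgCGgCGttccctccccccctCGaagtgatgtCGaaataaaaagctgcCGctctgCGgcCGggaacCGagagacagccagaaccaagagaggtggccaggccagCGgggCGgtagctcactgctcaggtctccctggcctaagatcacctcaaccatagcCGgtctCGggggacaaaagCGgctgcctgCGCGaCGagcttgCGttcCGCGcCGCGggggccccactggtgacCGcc

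These 250 bases held 6 CpG in Ckm and 1 in Myh4, 15 in Pax6, 22 in Tbx20, 13 in Pax7 and 22 in Gata2. Over 24963 autosomal genes, the median was 8 CpG, and it was 15 for promoters with H3K27ac, 14 for those with both marks, 6 for those with H3K27me3 and 2 for those with neither. Shares with at least 10 CpG were 69.3%, 67.0%, 36.9% and 5.44% in that order, against 47.2% of all promoters. The E-box letters CAGCTG, which read the same on both strands, stood in Ckm and Myh4 and in 12.2% of all promoters, and their share ran from 11.1% to 14.6% over the 4 classes. TATAAA, searched on both strands, stood in Myh4, in 12.01% of all promoters and in 23.7% of those with neither mark. These matches describe the letters of the window and were given no test.

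H3K27ac and H3K27me3 overlapped less than their covered lengths give by independent placement. H3K27ac peaks covered 340 ± 36.8 Mb (SD, n = 10) or 13.8% of the autosomes, and H3K27me3 peaks 261 ± 94.3 Mb or 10.6%. The difference in covered length was 0.45 ± 0.42 on the log2 scale (two-sided exact permutation test that flips the sign within animals, p = 0.00977, Benjamini-Hochberg adjusted over 12 single-value tests p = 0.0117), with H3K27ac the longer in 9 of 10 animals and H3K27me3 the longer in animal 5. In the 4 animals whose deposited names carry a run number the difference was 0.06, and in the 6 others 0.71. The bases under both marks amounted to 13.8 to 33.9 Mb per animal, against 21.0 to 69.0 Mb from the product of the shares. The ratio of the overlap to that product was 0.491 in animal 5, 0.587 in animal 1, 0.633 in animal 3, 0.647 in animal 6, 0.658 in animal 2, 0.679 in animal 10, 0.688 in animal 7, 0.698 in animal 4, 0.740 in animal 9 and 0.752 in animal 8. It was below 1 in all 10 animals, with a mean log2 of -0.62 ± 0.18 (exact permutation test, p = 0.00195, the smallest that 10 animals allow, adjusted p = 0.00391). Split by the run number, it was -0.66 in the 4 animals with a run number, where the smallest possible p is 0.125, and -0.58 in the 6 others (exact p = 0.03125).

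The shortfall was in bases and depended on what was counted. The share of H3K27ac peaks with at least 50% of their length under H3K27me3 was 9.79 ± 2.22% (SD, n = 10), and its log2 ratio to the share of bases under H3K27me3 was -0.07 (exact permutation test, p = 0.273). Limited to 10 kb bins that held a peak of either mark in any animal, the log2 ratio was -1.46, a value that leaving out empty bins lowers by construction. On the scale of 1 Mb, the 2 marks lay in the same parts of the genome. Their coverage of 2235 bins with a peak of either mark in any animal correlated across bins with a Spearman rho of 0.380 to 0.512 in the 10 animals, over 18111 bins of 100 kb with -0.305 to -0.0844, and over 136800 bins of 10 kb with -0.535 to -0.256. Leaving out bins without peaks makes such a rho more negative. Against the product of the shares within each bin, the ratio of the overlap was 0.457 ± 0.0353 with bins of 1 Mb and 0.763 ± 0.0577 with 100 kb. With bins of 10 kb it was 1.06 ± 0.0501 (SD, n = 10, from 0.952 in animal 5 to 1.13). Bins near the width of a peak move this ratio towards 1 by construction. The value at 10 kb therefore does not show whether a shortfall remained. These bins of 1 genome share gene content and mappability and are no replicates. Across the 19 autosomes, coverage of H3K27ac (rho = 0.877) and of H3K27me3 (rho = 0.768) followed the number of genes per Mb. The mean ratio of the overlap per chromosome ran from 0.464 ± 0.0375 on chromosome 11 to 0.961 ± 0.160 (SD, n = 10 animals) on chromosome 3.

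H3K27me3 overlapped H3K4me3 more than the product of their shares gives in 9 of 10 animals, unlike its overlap with H3K27ac. The ratio for H3K4me3 with H3K27me3 ran from 0.830 in animal 5 to 1.86, above 1 in the 9 other animals, and that for H3K4me3 with H3K27ac from 5.83 to 7.62. The ratio with H3K27ac was below that with H3K4me3 in every animal, by 1.10 ± 0.24 on the log2 scale (exact permutation test, p = 0.00195, adjusted p = 0.00391). Among bases within 1 kb of a start site alone, the difference was -0.30 (exact p = 0.00195). Split by the run number, it was -0.88 in the animals with a run number and -1.25 in the others.

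**Figure D1:**
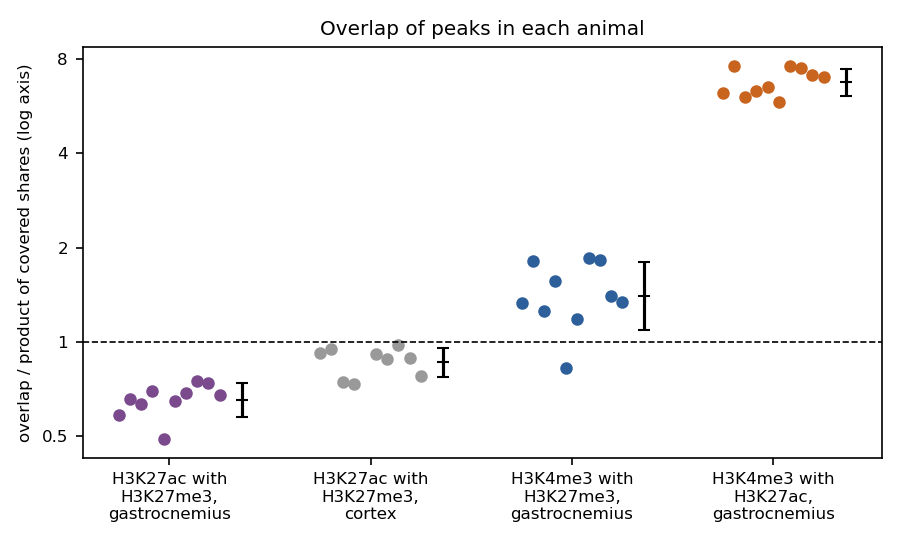
Each point is 1 animal (10 in gastrocnemius, 9 in cortex), and the y axis gives the overlap of a pair of marks divided by the product of their covered shares, on a log axis. Bars beside the points are the mean and SD on the log2 scale, and the dashed line is the ratio of independent placement. In gastrocnemius H3K27ac with H3K27me3 lay between 0.491 and 0.752, below H3K4me3 with H3K27me3 at 0.830 to 1.86.

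The shortfall was deeper in muscle than in the cortex of the same animals. The cortex ratio was 0.733 to 0.977 in 9 animals. The gastrocnemius value was lower in 9 of 9 animals, by 0.36 ± 0.18 on the log2 scale (exact permutation test, p = 0.00391, adjusted p = 0.00586). It was lower by 0.32 in the 3 animals whose gastrocnemius libraries have a run number (exact p = 0.25, the smallest possible) and by 0.37 in the 6 others (exact p = 0.03125). The cortex libraries of animal 6, 1 of those 3, have no run number, and without this animal the difference was -0.34 (exact p = 0.00781). Cortex H3K27ac libraries held 3.90 to 21.0 M reads and cortex H3K27me3 libraries 3.90 to 6.35 M, and the part of this depth in the result was not tested. H3K27ac peak sets of different animals shared 64.7 to 72.6% of their bases and H3K27me3 sets 31.7 to 56.3%, while the pair of marks shared 3.03 to 4.90% within an animal and 3.01 to 5.05% between animals. The overlap within an animal was 0.988 times that between animals (difference of -0.0178 on the log2 scale, permutation of the pairing, p = 0.00827, adjusted p = 0.0110), with 5 animals above and 5 below 0. The difference was -0.0023 in the 6 animals without a run number (permutation p = 0.606) and -0.0394 in the 4 with one (p = 0.125), and it was -0.0115 without animal 6 (permutation p = 0.0507).

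Bases with both marks lay close to start sites and under H3K4me3 more often than bases with 1 mark, though most lay elsewhere. Near a start site (1 kb on either side) lay 18.3 ± 3.36% of the bases with both marks, 7.75 ± 0.707% of those with H3K27ac alone and 3.02 ± 0.535% of those with H3K27me3 alone (SD, n = 10). Under H3K4me3 lay 39.0 ± 6.54%, 22.3 ± 2.14% and 1.58 ± 0.493%, and in each animal the bases with both marks had the highest share of the 3. The 5609 to 10988 stretches with both marks per animal had medians of 2000 to 3000 bp. In bulk tissue both marks at a site may come from different cells, alleles or histone tails, and fewer cells of a type cannot be told apart from less of a mark per cell.

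Peaks that touched the other mark differed in width. H3K27ac peaks that touched H3K27me3, 9.80 to 18.4% of them, were narrower by 0.12 ± 0.05 on the log2 scale (exact permutation test, p = 0.00391, adjusted p = 0.00586), with medians equal in animal 9. H3K27me3 peaks that touched H3K27ac, 14.2 to 23.2% of them, were wider by 0.19 ± 0.06 and held more reads per kb by 0.08 ± 0.02, both in 10 of 10 animals (exact p = 0.00195, adjusted p = 0.00391 for each). Width itself raises the chance to touch another peak. H3K27ac peaks that touched H3K27me3 held 0.02 ± 0.03 more reads per kb on the log2 scale (exact p = 0.03125, adjusted p = 0.0341), a difference that passed the threshold in 2 of the 10 sets that left 1 animal out. Of the H3K27me3 peak bases, 7.56 ± 1.19% lay under H3K27ac in the quartile of peaks with the fewest reads per kb and 11.5 ± 1.79% in the quartile with the most.

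Most promoters carried H3K27ac alone or neither mark. Of 24963 autosomal genes, a peak lay within 1 kb of the start site in at least 8 of 10 animals for H3K27ac alone at 13172, for H3K27me3 alone at 2842 (11.4%), for both at 1792 (7.18%) and for neither at 7157. An exact McNemar test per gene over the animals with 1 mark only, Benjamini-Hochberg adjusted over all genes, called H3K27ac in more animals at 12693 genes (50.8%) and H3K27me3 in more animals at 3022 genes (12.1%). Split by run number, neither the 4 nor the 6 animals gave an adjusted call, and in the 6 animals 11367 and 1529 genes had an unadjusted exact p of 0.03125, the smallest possible. At 10762 genes H3K27ac was called in all 10 animals and H3K27me3 in none, at 1315 the reverse held, at 1044 both were called in all 10, and at 4100 neither in any. Calls of H3K27me3 varied more between animals, since it was called in 1 to 9 animals at 6037 genes and H3K27ac at 2575. H3K27me3 libraries held 2.99 to 18.2 M reads in peaks and H3K27ac libraries 15.6 to 27.04 M. The part of this depth in the difference was not tested. H3K4me3 in at least 8 animals accompanied 90.7% of the promoters with H3K27ac alone, 90.8% of those with both, 27.4% of those with H3K27me3 alone and 2.53% of those with neither.

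**Figure D2:**
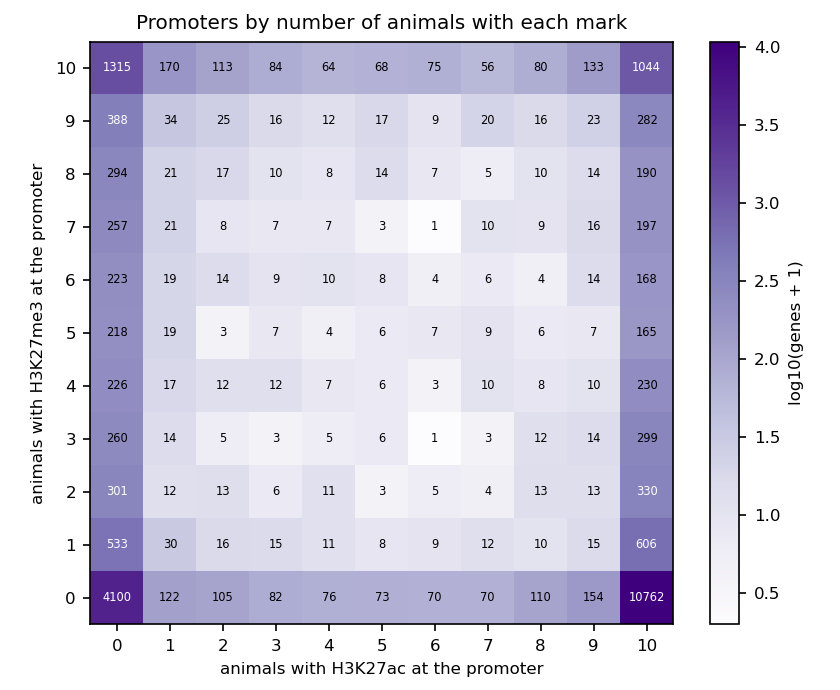
The x axis gives the number of animals with H3K27ac at a promoter, the y axis the number with H3K27me3, and each cell holds its count of genes, shaded by log10 of the count plus 1. The corners hold most genes, with 10762 at H3K27ac in all and H3K27me3 in none, 4100 at neither in any, 1315 at H3K27me3 in all and H3K27ac in none, and 1044 at both in all 10 animals.

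In single animals, 15237 to 15939 promoters carried H3K27ac, 5134 to 7627 carried H3K27me3 and 2295 to 3315 carried both. The promoters with both were 14.9 to 21.1% of those with H3K27ac and 42.0 to 49.9% of those with H3K27me3. Their number was 0.680 to 0.781 times the product of the shares, a mean log2 of -0.47 ± 0.05 (exact permutation test, p = 0.00195, adjusted p = 0.00391, below 0 in 10 of 10 animals), with -0.45 and -0.49 in the animals with and without a run number.

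Myofibre genes carried H3K27ac with little H3K27me3. Of 26 sarcomere and Z-disc genes, 23 were called for H3K27ac and 0 for H3K27me3, against 50.8% and 12.1% of all genes. At the Myh4 promoter (chromosome 11, start site 67237812), H3K27ac peaks held 5.11, 6.22 and 9.09 RPM in the lowest, median and highest animal, and H3K27me3 was not called in any. The RPM spread the reads of a peak evenly over its length, take the part within the promoter window per M reads in all autosomal peaks of the library, are 0 where no peak was called, and cannot be compared between antibodies. At Ckm (start site 19411094) H3K27ac held 7.25, 9.46 and 11.6 RPM, and H3K27me3 was called in animal 5 alone, at 3.68. Both genes kept apart from H3K27me3 in at least 9 animals (adjusted p = 0.00404 and 0.00728). The 3 uncalled genes were Acta1, skeletal alpha actin, and the slow fibre genes Myh7 and Myl2, a myosin heavy and a regulatory light chain.

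Both Myh7 and Myl2 carried both marks in at least 8 animals, while the slow troponins Tnnt1, Tnni1 and Tnnc1 were called for H3K27ac, with H3K27ac in 10 animals and H3K27me3 in 0, 1 and 0. At Myh7 (chromosome 14, start site 54994626), H3K27ac peaks held 0, 2.71 and 4.12 RPM in the lowest, median and highest animal and were called in 8, while H3K27me3 held 5.57, 8.83 and 11.8 and was called in 10 (adjusted p = 0.678). At Myl2 (chromosome 5, start site 122093189), each mark was called in 9 animals, with medians of 3.78 for H3K27ac and 7.95 for H3K27me3. H3K27ac was not called at Myl2 in animal 4, and H3K27me3 was not called there in animal 2. H3K4me3 was called at Myh7 in 4 animals and at Myl2 in 2, against 10 at Myh4 and Ckm. At Acta1 (chromosome 8) H3K27ac was called in 10 animals at 7.57 to 12.3 RPM, and H3K27me3 in animals 3, 5, 8, 9 and 10, at 5.003 to 9.29 there.

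Of 20 genes of energy use and calcium handling, 17 were called for H3K27ac and 0 for H3K27me3, against 50.8% and 12.1% of all genes. Pygm, muscle glycogen phosphorylase, Atp2a1, the fast fibre calcium pump, and Mb, myoglobin, were under H3K27ac in 10 animals and under H3K27me3 in 0. Pvalb, the calcium buffer parvalbumin, and Cacna1s, the voltage sensor of excitation and contraction, carried H3K27ac in 10 animals and H3K27me3 in 5, which was not called. Sln, sarcolipin, carried neither mark in any animal. Of 20 broadly expressed genes 19 were called for H3K27ac and 0 for H3K27me3, against the same 50.8% and 12.1%. The exception was Eef1a1, a translation elongation factor, with H3K27ac in 10 animals and H3K27me3 in 8. This gene has many processed copies in the genome, and whether reads were shared with them was not tested.

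**Figure D3:**
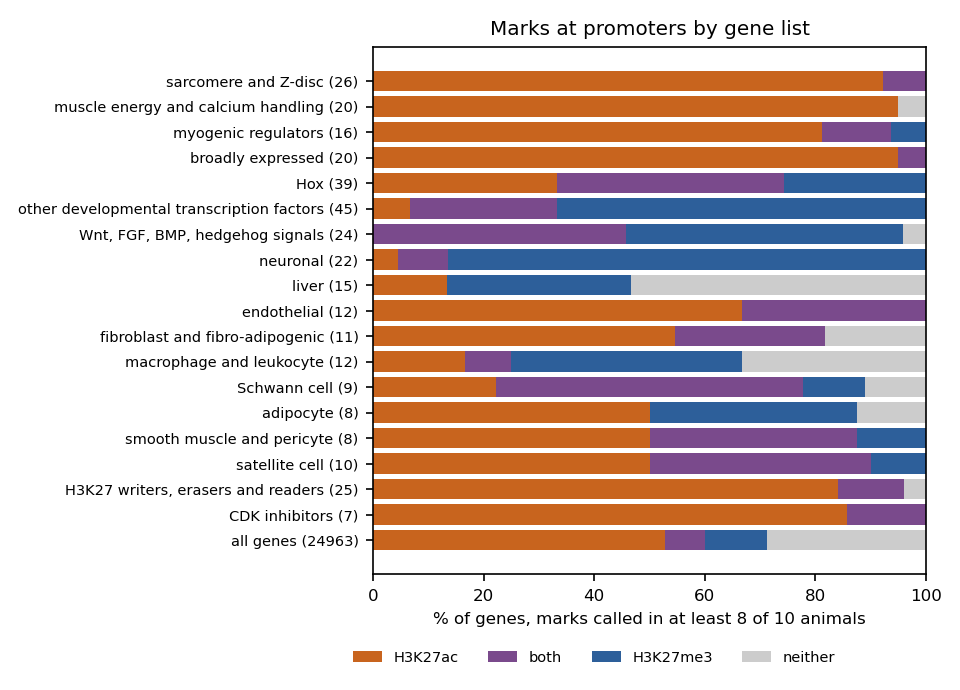
Bars give, for each gene list and for all genes, the percentage of promoters with H3K27ac, both marks, H3K27me3 or neither, each mark counted when called in at least 8 of 10 animals. The number of genes stands beside each name. H3K27ac fills the sarcomere list (24 of 26 alone, 2 with both), H3K27me3 the neuronal list (19 of 22 alone), and both marks are common in the Hox (16 of 39) and signalling ligand (11 of 24) lists.

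Of 16 myogenic regulators, 13 were called for H3K27ac and 1 for H3K27me3, against 50.8% and 12.1% of all genes. Myod1, Myf5, Myf6 and Myog, the 4 myogenic basic helix-loop-helix factors, carried H3K27ac in 10 animals each. At Myog H3K27ac held 6.39, 7.16 and 9.36 RPM in the lowest, median and highest animal and H3K27me3 was called in none, while at Myod1 H3K27me3 was called in animals 9 and 10. Pax3, which acts in the embryonic muscle precursors, was called for H3K27me3 (10 animals, against 2 with H3K27ac, adjusted p = 0.0136), at 7.12, 11.6 and 18.02 RPM. Pax7 carried both marks in 10 animals, at 1.73 to 3.76 RPM of H3K27ac and 7.08 to 15.8 of H3K27me3.

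Both marks met at markers of other cell types of muscle. Both were called in at least 8 animals at 4 of 12 endothelial, 3 of 11 fibroblast, 5 of 9 Schwann cell, 3 of 8 smooth muscle and pericyte, 4 of 10 satellite cell and 1 of 12 leukocyte genes and at 0 of 8 adipocyte genes, against 7.18% of all genes and 2 of 26 sarcomere genes. Kdr, Flt1 and Sox18 (endothelial receptors and a transcription factor), Pdgfra and Col1a1 (a fibroblast receptor and collagen I), Ngfr and Erbb3 (Schwann cell receptors) and Pdgfrb (a pericyte receptor) carried both in 10 animals. At Flt1 H3K27ac held 6.50, 8.44 and 10.2 RPM in the lowest, median and highest animal and H3K27me3 5.59, 8.86 and 18.2. At Pdgfra the values were 5.10, 5.93 and 7.84 for H3K27ac and 6.26, 13.3 and 18.4 for H3K27me3. Pecam1 and Emcn, also endothelial, and Dcn, a fibroblast proteoglycan, carried H3K27ac in 10 animals and H3K27me3 in 0. Of 12 leukocyte genes 7 were called for H3K27me3, among them C1qa in 10 animals, and 2, Cd68 and Spi1, for H3K27ac, against 12.1% and 50.8% of all genes, and 6 of the 12 carried H3K27me3 in at least 8 animals. Against the same shares, 6 of 15 liver genes were called for H3K27me3 and 1 for H3K27ac, with Hnf4a, a liver regulator, under H3K27me3 in 10 animals.

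Neuronal genes lay under H3K27me3 in this muscle. Of 22, 18 were called for H3K27me3 and 1 for H3K27ac, against 12.1% and 50.8% of all genes. At Snap25, a synaptic fusion protein, H3K27me3 peaks held 4.72, 7.74 and 11.6 RPM in the lowest, median and highest animal, and H3K27ac was called in none (adjusted p = 0.00404). Gad1, Neurod1 and Grin1 showed the same calls, and H3K4me3 was called at none of the 4. The exceptions were Camk2a, a calmodulin kinase, with H3K27ac in 10 animals and H3K27me3 in 0, Slc17a7 and Cacna1a, with both marks in at least 8, and Neurod2, a neuronal transcription factor, with H3K27ac in 6 and H3K27me3 in 10 (adjusted p = 0.184). At Slc17a7, a vesicular glutamate transporter, H3K27ac held 6.60 to 9.63 RPM and H3K27me3 7.23 to 16.4, each in 10 animals.

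Developmental transcription factors outside the Hox clusters were under H3K27me3 in 42 of 45 cases in at least 8 animals, against 4634 of all 24963 genes, with 28 called for H3K27me3 and 1 for H3K27ac, against 12.1% and 50.8% of all genes. At Pax6 H3K27me3 held 8.05, 13.9 and 21.1 RPM and at Tbx20 6.28, 11.9 and 18.1, and H3K27ac was called at neither in any animal. Both marks were called in at least 8 animals at 12 of the 45, among them Gata2, at 4.96, 10.2 and 12.9 RPM of H3K27ac and 6.47, 11.9 and 17.2 of H3K27me3, and Sox17, an endothelial and endoderm regulator, at 8.49 to 12.5 of H3K27ac and 6.09 to 15.3 of H3K27me3. Prrx1, a regulator of limb mesenchyme, was the factor called for H3K27ac (10 animals against 1). Of 24 Wnt, FGF, BMP and hedgehog ligands and antagonists, 23 carried H3K27me3 in at least 8 animals, 10 were called for it and 0 for H3K27ac, to be read against the same shares. Wnt5a, Bmp4 and Wnt1 carried both marks in 10 animals, and Shh and Grem1 carried H3K27me3 in 10 and H3K27ac in 0.

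The 4 Hox clusters, which pattern the body axis, differed in their marks along their length. Of 39 Hox genes 8 were called for H3K27ac, 8 for H3K27me3 and 23 for neither, against 50.8% and 12.1% of all genes for the marks. Bases called in at least 8 animals made up 95.1% of the span of Hoxa for H3K27ac and 21.8% for H3K27me3, 33.0% and 93.6% of Hoxb, 73.9% and 27.7% of Hoxc, and 19.8% and 84.2% of Hoxd. H3K27ac was called at Hoxa2 to Hoxa13 in 10 animals, while H3K27me3 was called at Hoxa3 to Hoxa9 in 0 to 2 animals and at Hoxa2, Hoxa10, Hoxa11 and Hoxa13 in 9 or 10. At Hoxa4 H3K27ac held 5.92, 10.4 and 12.1 RPM and H3K27me3 was not called, and at Hoxa13 the ranges were 2.21 to 5.03 and 4.15 to 12.2. In Hoxb all 10 genes carried H3K27me3 in 10 animals, and Hoxb2 and Hoxb4 to Hoxb9 carried H3K27ac in 10 as well, which gave both marks over 32.5% of the span. In Hoxc H3K27ac reached from Hoxc4 to Hoxc11 in 10 animals and was called in 0 at Hoxc12 and Hoxc13, where H3K27me3 was called in 10. In Hoxd H3K27ac was called in 10 animals at Hoxd3, Hoxd8, Hoxd9 and Hoxd10 and in 0 at Hoxd11, Hoxd12 and Hoxd13. At Hoxd13 H3K27me3 held 8.25, 15.3 and 18.9 RPM. Neighbouring Hox promoters shared peaks, so their values are not independent, and Hoxa3 and Hoxd3 were placed by the start site of their most frequent RefSeq transcripts, which lie next to other genes of the cluster.

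**Figure D4:**
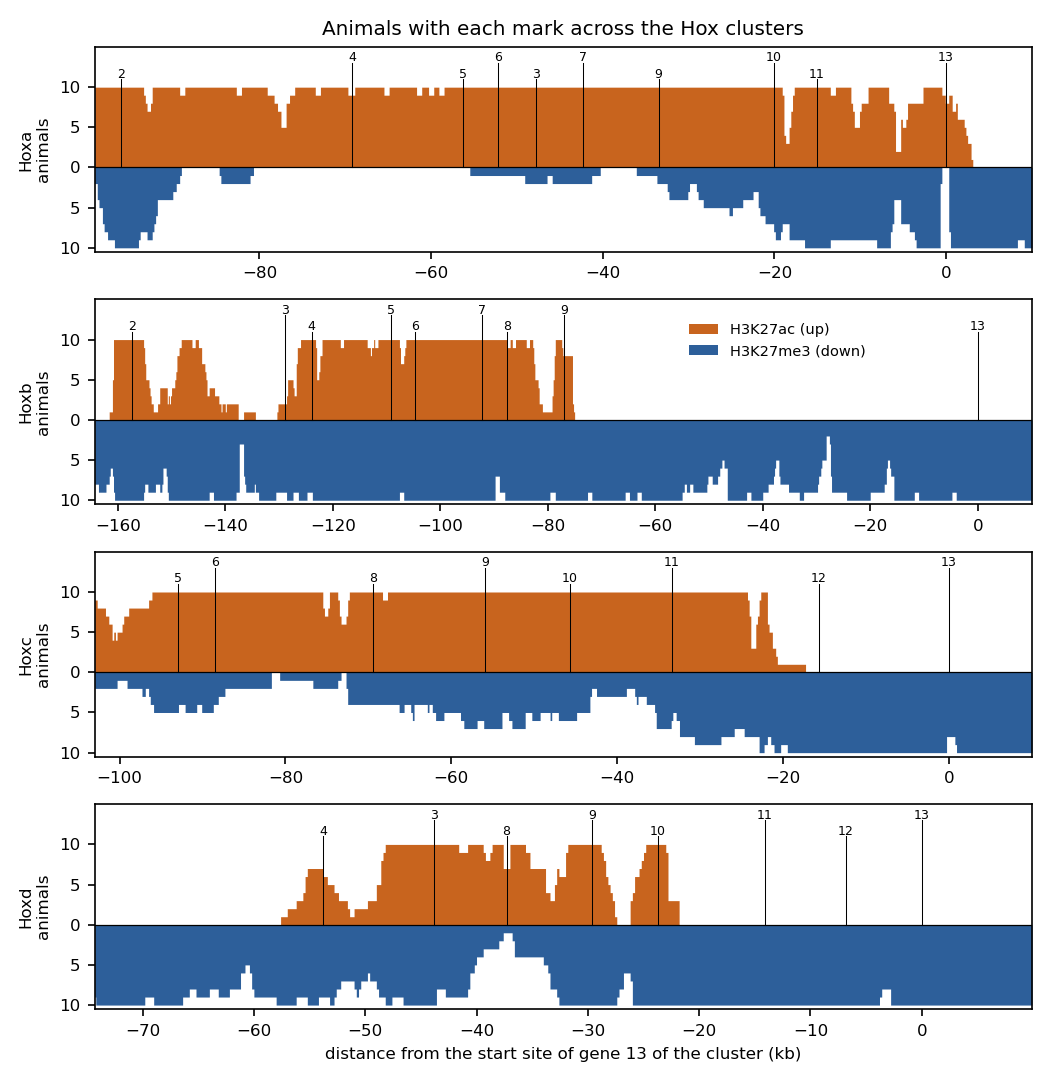
For each Hox cluster, the number of animals (of 10) with H3K27ac is drawn upward and with H3K27me3 downward in windows of 200 bp, against the distance in kb from the start site of gene 13 of the cluster. Vertical lines with gene numbers mark start sites. H3K27ac covers most of the part of Hoxa shown, stops between Hoxc11 and Hoxc12 and after Hoxd10, and lies in Hoxb within an H3K27me3 domain that spans the cluster.

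Genes of the enzymes that set or read these marks were mostly under H3K27ac, with 21 of 25 called for it and 0 for H3K27me3, against 50.8% and 12.1% of all genes. Ezh1, Ezh2, Eed and Suz12, core subunits of the Polycomb methyltransferase, and Ep300 and Crebbp, the acetyltransferases, carried H3K27ac in 10 animals and H3K27me3 in 0. Cbx2 and Cbx8, which read H3K27me3 and lie near each other on chromosome 11, carried both marks in 10 animals, while Cbx7 carried H3K27ac in 10 and H3K27me3 in 3. At Cbx2 H3K27ac held 4.28, 6.13 and 8.37 RPM in the lowest, median and highest animal and H3K27me3 1.79, 8.26 and 17.2. Of 7 inhibitors of cyclin-dependent kinases 6 were called for H3K27ac, also against 50.8% of all genes. The exception was Cdkn2a, a known Polycomb target, with both marks in 10 animals, at 4.44 to 6.69 and 7.11 to 16.0 RPM. Its neighbour Cdkn2b carried H3K27ac in 10 animals and H3K27me3 in 4 (adjusted p = 0.0496).

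Both marks overlapped in at least 8 animals in 3647 regions with a median of 1800 bp and 7.60 Mb in all, of which 1185 held a start site. Of the 10 longest, 4 lay at Sfi1 and Pisd-ps1 (chr11:3130401-3200000) and at Hjurp and Mroh2a (chr1:88235001-88249600, chr1:88251001-88270000 and chr1:88271601-88291400), and H3K4me3 covered 100% of each of these 4 in at least 8 animals. The series' files hold no input library, so whether any antibody gives reads there was not tested. The others were at Hoxb6, Hoxb7 and Hoxb8 (chr11:96284201-96301200), Hoxb5 (chr11:96301801-96316800), Trpv4, a cation channel (chr5:114646001-114661000), Gata2 (chr6:88192801-88206800), Flt1 (chr5:147714601-147727800) and the transporters Slc16a11 and Slc16a13 (chr11:70212401-70225400). H3K4me3 in at least 8 animals covered 17.3% of the Trpv4 region and 68.0 to 98.6% of the other 5. At 474 genes both marks filled the 2200 bp of the promoter window in the median animal. Among them the longest stretches around the start site, an order chosen after the values were seen, were those of Hoxb5 to Hoxb8, Hjurp, Hoxb5os, Trpv4, Gata2, Flt1, Bcl6b, Slc16a13, Nrarp, Slc16a11 and Tinagl1, which were 11900 bp or longer in the median animal.

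Around the borders of H3K27me3 domains, H3K27ac covered less than its share of the autosomes, fell further into the domains and rose with distance outside. Domains were H3K27me3 peaks joined across gaps of up to 2 kb and at least 10 kb wide, and each animal had 4640 to 13314 of them over 91.0 to 408 Mb. H3K27ac covered 9.21 ± 1.27% of the bases from the border to 5 kb inside and 9.52 ± 1.79% of those to 5 kb outside (SD, n = 10). Outside exceeded inside by 0.30 ± 1.46 percentage points, above 0 in 5 animals and below in 5 (exact permutation test, p = 0.645), and animal 5 alone gave 3.92 points. In the profile by 1 kb, H3K27ac fell from 9.48 ± 1.30% at 1.5 kb inside to 5.46 ± 0.843% at 19.5 kb inside, where only wider domains reach. The mean step from inside to outside without animal 5 was -0.10 points. For domains of at least 20 kb outside exceeded inside by 1.24 points (exact p = 0.00781), and for those of at least 5 kb the difference was -0.67 points (exact p = 0.141).

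Further out, H3K27ac covered 12.4 ± 1.58% of the bases at 15 to 20 kb and 15.5 ± 1.49% at 45 to 50 kb, against 13.8% of the autosomes. The 5 kb next to the border held 2.87 ± 0.77 percentage points less than the zone at 15 to 20 kb, in 10 of 10 animals (exact permutation test, p = 0.00195, adjusted p = 0.00391). The difference was -2.38 points in the animals with a run number and -3.19 in the others. It was -1.78 points at borders with no start site within 20 kb outside, and -6.36 points when outside bases under other H3K27me3 peaks were left out, an alternative chosen after the data were seen (exact p = 0.00195 for both).

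**Figure D5:**
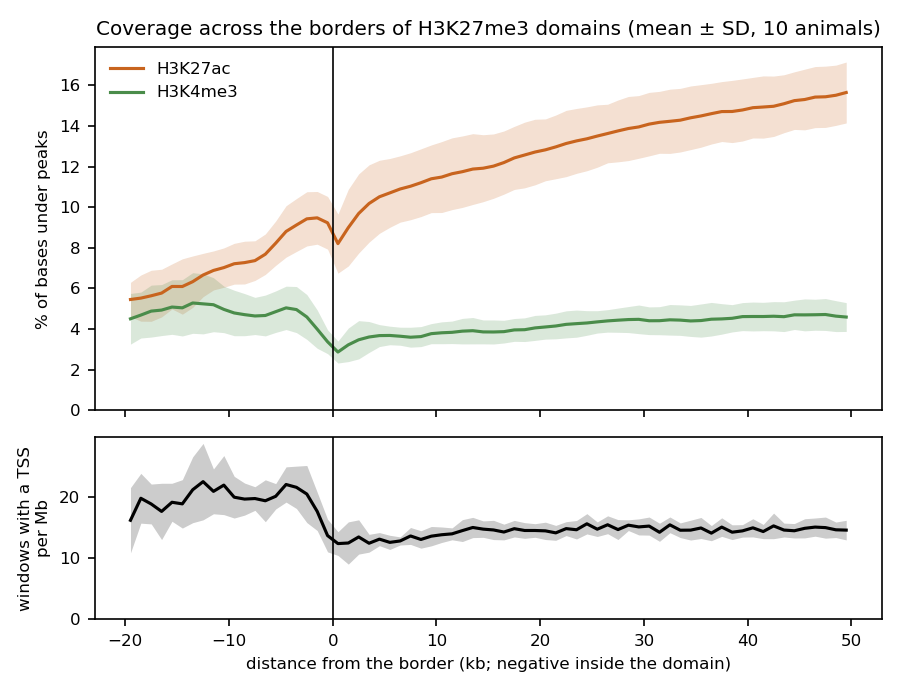
The upper panel gives the mean percentage of bases under H3K27ac and H3K4me3 peaks in steps of 1 kb from the borders of H3K27me3 domains (10 animals, shading is the SD, negative distances lie inside, and steps deep inside use only domains wide enough to reach them). The lower panel gives windows of 200 bp with a start site per Mb. H3K27ac fell to 8.21 ± 1.45% in the first 1 kb outside and rose to 15.5% at 45 to 50 kb.

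An H3K27ac peak crossed 8.23 ± 1.29% of the borders, abutted 0.258 ± 0.0934% from outside, and lay within 5 kb outside at 16.6 ± 2.45% (SD, n = 10). No H3K27ac base was found in 70.2 ± 3.25% of the domains of an animal. Among 3608 domains of bases called in at least 8 animals, with 81.6 Mb and a median of 16400 bp, 101 of 7216 borders had an H3K27ac site of at least 2 kb, also called in at least 8 animals, that began within 1 kb outside. Of 1913 genes that started within these domains, 582 (30.4%) also carried H3K27ac in at least 8 animals, against 14964 of all 24963 genes, and 944 in none.

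Of the 10 borders with the widest features on both sides, 9 are described here. The first ran between Panx2, a pannexin channel of neurons (H3K27me3 at chr15:89050401-89070200), and Trabd and Selenoo (H3K27ac at chr15:89070401-89103000), with a gap of 200 bp. In the least covered animal H3K27ac filled 95.7% of that site, and the median animal had it on 5.56% of the H3K27me3 domain. Another lay within Nrxn2, a neurexin of synapses, with H3K27me3 inside the gene (chr19:6419201-6434000) and the start sites of Nrxn2 and Rasgrp2 on the H3K27ac side (chr19:6395401-6418800), where H3K27me3 covered 0% of the H3K27ac site in the median animal. Others lay between Vsx1, a retinal homeobox gene, and Acss1, a mitochondrial acetyl-CoA synthetase, between Vax2 with its neighbours and Tex261, between Dmrtc2 and the ribosomal protein gene Rps19, between Plch2 and the peroxisome gene Pex10, and between a domain inside Fbxl16, without its start site, and Wdr24 with its neighbours. At Ren1, the renin gene, and Etnk2 the marks met with no gap before Sox13. The sides were less distinct at Ebf3, a transcription factor, where H3K27ac covered 41.5% of the neighbouring domain in the median animal.

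The ratio of the overlap was set against the covered length of each mark, 2 relations in all. Each covered length also stands in the product that divides the overlap, so ratio and length are not independent by construction. Over 10 animals, Pearson's r between the ratio's log2 and the Mb under H3K27me3 was -0.74 (permutation p = 0.0575, adjusted p = 0.115) and Spearman's rho -0.37 (permutation p = 0.295, adjusted p = 0.295). Without animals 2 and 5, the farthest from the median, r was -0.30, and among the 6 animals without a run number, which include animal 2 but not 5, it was -0.82. With the Mb under H3K27ac, r was -0.42 (permutation p = 0.238, adjusted p = 0.238) and rho -0.52 (permutation p = 0.136, adjusted p = 0.272), and r was -0.53 without animals 2 and 6, the farthest from that median, and -0.57 in the 6 animals.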

How the data were processed

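Gastrocnemius was snap frozen, and its chromatin was immunoprecipitated with an antibody to H3K27ac (ab4729, Abcam) or to H3K27me3. For alignment to mm10 the authors used bwa 0.7.17. They removed duplicates, reads under MAPQ 1 and those outside chromosomes 1 to 19 and X, and called peaks per library with epic2 (version not given in the sources used here) in windows of 200 bp, with up to 2 empty windows joined for H3K27ac and 3 for H3K27me3 at an FDR of 0.05. The deposited files give each peak's read count and a score, which the authors' caller computed for the peak and which served here only to leave out low peaks. Reads outside peaks and input libraries were not used here.

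Peaks of chromosomes 1 to 19 were set on windows of 200 bp. The overlap of 2 marks was divided by the product of their shares of 2463 Mb. Animals were the replicates, the 2 libraries of an animal were paired because they came from the same animal by its code, and single values were tested by sign flips within animals. RefSeq start sites of GRCm38 defined 24963 genes, each with 1 start site. Calls within 1 kb were compared with an exact McNemar test. The largest unadjusted p called was 0.03125, and 15723 genes had an unadjusted p under 0.05. Sign-flip p-values measure the spread among these animals only.

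Named genes were members of gene lists, the 15 with both marks in most animals, and those at the 10 widest borders and the 10 longest shared regions. The 474 genes tied for the second rule were ordered by the length of the stretch with both marks, a choice made after the values were seen. The members and lists were chosen with earlier results of these data known. Some genes these rules name are not reported here. Of 16 liver genes 15 were matched. Alternatives left out low-scoring peaks, equalised peak numbers, left out animals, split the animals by the run number in the deposited names, dropped the pairing, and changed domains, promoter widths and the test (edgeR 4.0.16 on peak reads, with DESeq2 1.42.0 size factors in 1 setting). The steps were tested on simulated data. Python 3.11.15, numpy 2.4.6, scipy 1.17.1, pandas 2.3.3, pysam 0.24.0, matplotlib 3.10.9, R 4.3.3 and limma 3.58.1 were used.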

Additional observations from a re-analysis of the deposited data

Results flagged for a closer look

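In 68 sets of 9 or 10 animals, 9 values stood apart from the others by Dixon's criterion at 95%, where chance gives about 1 in 20. Animal 5 gave 5 of them. Its H3K27me3 library held 18.2 M reads and covered 484 Mb, its H3K27ac coverage rose by 3.92 percentage points from inside to outside H3K27me3 borders, its coverage next to the borders was -0.99 percentage points from that at 15 to 20 kb, and it alone had an H3K27me3 peak at Ckm, at 3.68 RPM. The depth and the border values moved together in this animal, and the part of depth was not tested.

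The H3K27ac library of animal 9 held 67089 peaks, and the difference in width between its H3K27ac peaks that touched H3K27me3 and the others was 0 on the log2 scale. The H3K27ac library of animal 6 held 27.04 M reads. H3K27ac at Myl2 was 0 RPM in animal 4. The overlap of the marks differed between tissues, with gastrocnemius minus cortex at -0.36 on the log2 scale (exact permutation test over 9 animals, adjusted p = 0.00586).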

How the results depend on the processing

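Over 14 results and 230 alternatives, 196 were counted as unchanged. For single values this meant the same direction and side of the threshold, and for counts of promoters a count near the main one. In the 4 animals with a run number the sign-flip test allowed no p under 0.125. The values were 0.060 for covered length, -0.66 for the overlap, -0.88 against H3K4me3, -0.32 against cortex (3 animals), -2.38 points for the near border zone, -0.45 for promoters with both marks, and -0.11 and 0.22 for the widths and 0.0073 and 0.083 for the reads per kb of H3K27ac and H3K27me3 peaks. For the same against different animals, tested by permutation of the pairing, the value was -0.0394. In the other 6 animals the same-animal difference was -0.0023 and the border step -0.30 points, with no other single-value call lost. The border step was also -0.67 points for domains of at least 5 kb, -0.26 at borders with no start site within 5 kb, 1.24 for domains of at least 20 kb, and -0.10 to 0.45 with 1 animal left out, lowest without animal 5. The reads per kb of touching H3K27ac peaks gave 0.013 without the lowest-scoring 25% of peaks, 0.017 with equal peak numbers, and 0.018 to 0.030 with 1 animal left out. The same-animal difference ranged from -0.0205 to -0.0115 with 1 animal left out. Counted over H3K27ac peaks with at least 50% of their length under H3K27me3, the overlap was -0.075. For these changes the cause was not tested beyond the smaller number of animals. edgeR without normalization factors called 4545 promoters for H3K27me3, against 3022, and with TMM 3641. Without the replicate block (pairing by animal) the overlap was -0.60 with the H3K27me3 of the next animal, and covered length had a permutation p of 0.0119. Of the single values, only these, promoters with both marks and the border values were run without the block, and none of their calls changed. Fisher's exact test called 12946 and 3328 promoters, against 12693 and 3022. In the split by run number the exact McNemar test called 0 promoters for either mark after adjustment, with a smallest adjusted p of 0.231 in 4 animals and 0.0605 in 6, the latter with 11367 promoters for H3K27ac and 1529 for H3K27me3 at an unadjusted p under 0.05 (0 and 0 in 4 animals). Fewer animals set these limits, and in the 4 animals 11245 promoters carried H3K27ac in each and H3K27me3 in none. Reads below the peak threshold are outside these values, so an uncalled mark is not an absent one.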
